A study of Homo sapiens with 6 samples.

Results

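The 48 genes described here make and use the thiol and antioxidant systems of the cell, and they were selected by symbol from the 22077 genes of a deposited count table. They comprise 5 regulators of NRF2, 5 genes of glutathione synthesis and recycling, 5 glutathione peroxidases, 12 glutathione transferases, 12 thioredoxin and peroxiredoxin genes and 9 other antioxidant or NRF2 target enzymes. All 48 passed the filter on low counts, with 14162 genes tested in all. The selection read gene symbols, but it was drawn up with results of the same comparison known. The counts and medians given over the 48 genes are therefore a description and no independent support for the set as a whole.

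RNA-seq was performed on 3 libraries of hepatocellular carcinoma cells with the genotype label over-expression and on 3 libraries of control cells with the genotype label wt. The introduced gene was transketolase (TKT), an enzyme of the non-oxidative pentose phosphate pathway, carried on the plasmid pTSB02-GFP-PURO, and the comparison asks which transcripts differ when cells carry more of it. The cell line label reads Hu7, and the study names Huh7 for this experiment in one place and HCCLM3 in another. No drug treatment or time point is attached to either condition. The study's methods do say that transfected cells then went through selection, and they name no agent or duration there. The control samples are titled VC with a number, and what plasmid the control cells received is not given in the sources used here. Each library is called a separate biosample, but nothing says whether these came from separate transfections, so the p-values measure only the spread between libraries. In total RNA from a culture, fewer expressing cells and less RNA per cell cannot be told apart, and neither can TKT and any other difference in handling between the conditions.

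Libraries held between 30148788 and 37096156 counts. TKT (chromosome 3, 53224707 to 53256052 of GRCh38, GENCODE 29) had 9402, 9549 and 9392 CPM (counts corrected for library size) in TKT-overexpressing cells and 497, 469 and 515 CPM in control cells. Its log2 fold change was 4.26 (SE 0.04, adjusted p = 1.15e-25, edgeR quasi-likelihood test), and the exact two-sided permutation test gave p = 0.1, the smallest that 3 libraries against 3 allow. Hepatocyte and hepatoma markers were present, with 11 of 12 above 1 FPKM (counts scaled to library size and gene length) in every library and a summed level of 6576 to 6712 FPKM in control and 6702 to 6828 FPKM in TKT-overexpressing cells. The exception was APOB, the apolipoprotein of very low density lipoprotein, with at most 6 counts in a library. Of 8 markers of other cell types, 6 stayed under 1 FPKM, CD68 and KRT7 among them at 0 FPKM in all control libraries. The 8 summed to 85.4 to 92.5 FPKM in control and 68.0 to 73.6 FPKM in TKT-overexpressing cells, and nearly all of it was LYZ, at 82.9 to 89.8 FPKM in control and 66.0 to 71.3 FPKM in TKT-overexpressing cells. The part of this difference in the results was not tested.

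NRF2, the product of NFE2L2, is the main transcription factor of the antioxidant response. KEAP1 holds it for degradation until oxidants or electrophiles modify KEAP1, after which NRF2 pairs with a small MAF protein and binds antioxidant response elements, sites for which BACH1 competes as a repressor. Glutathione and thioredoxin then pass electrons from NADPH to peroxidases and other enzymes, and in the liver glutathione transferases also conjugate drugs and reactive metabolites.

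Across the 48 genes, 10 were higher and 5 lower with TKT overexpression at an adjusted p under 0.05 over all tested genes. This is 20.8% higher and 10.4% lower, where 5.69% of all tested genes were higher and 4.94% lower. The shares over all tested genes are also the background for each group and list count below. That background is not matched in level. The 48 genes had a median of 30.9 FPKM in control cells, against 3.47 FPKM for all tested genes. Whether genes of a like level have similar shares of calls and of non-overlap was not tested for the 48 as a whole. The higher genes were MAFF, MAFG, GCLC, GCLM, GSTA2, TXNRD1, TXNIP, SOD2, HMOX1 and OSGIN1, and the lower genes were GPX1, GSTK1, PRDX2, CAT and IDH1. The changes were small, with a log2 fold change between 0.30 and 1.06 for the higher genes and between -0.24 and -0.18 for the lower genes. GSTA2 alone passed an absolute log2 fold change of 1, which 0.727% of all tested genes passed along with the adjusted p. TXNIP passed it too with upper-quartile scaling or without the first TKT-overexpressing library, TXNIP alone passed it without the first control library, and none of the 48 did with limma on log2(FPKM + 1). The median log2 fold change of the 48 genes was -0.04, against 0.0008 for all tested genes, with 21 genes above 0 and 27 below. A further 14 genes had an unadjusted p under 0.05 but missed the adjusted threshold. Libraries of the conditions did not overlap in 15 genes with TKT-overexpressing cells higher (31.2%) and in 7 with control cells higher (14.6%), compared with 14.1% and 13.9% of all tested genes. Non-overlap in either direction was seen in 4 of 5 regulators, 3 of 5 genes of glutathione synthesis and recycling, 1 of 5 peroxidases, 4 of 12 transferases, 5 of 12 thioredoxin and peroxiredoxin genes and 5 of 9 remaining enzymes, as the plot of every library shows.

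**Figure D1:**
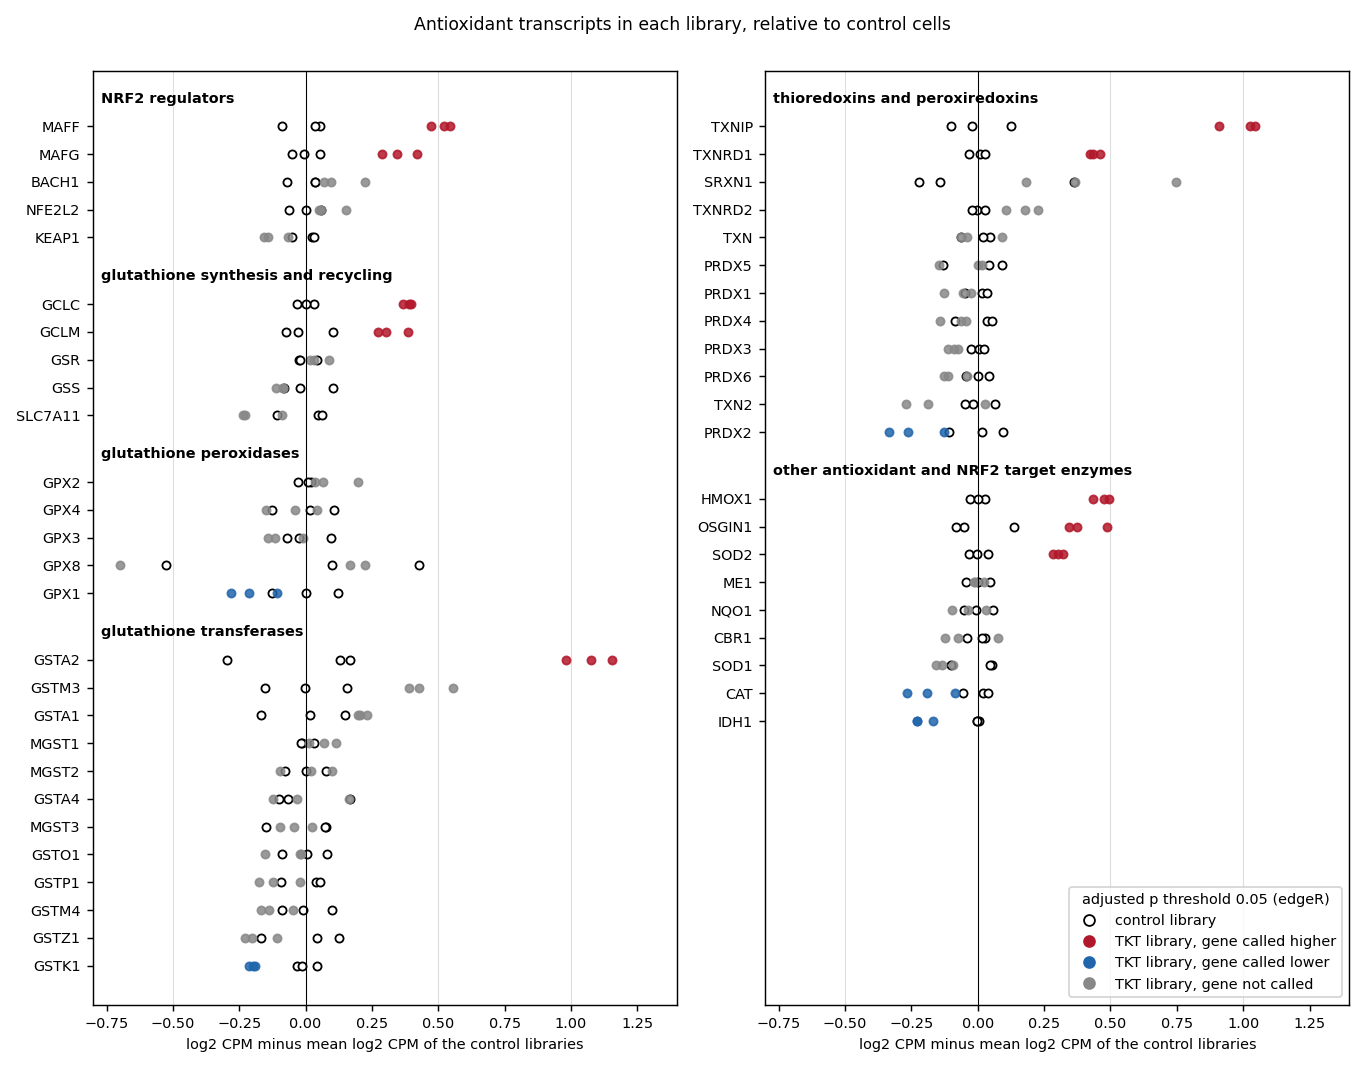
Each point is 1 library, and the x axis gives its log2 CPM minus the mean log2 CPM of the 3 control libraries, for the 48 genes sorted within 6 functional groups. Open points are control libraries and filled points TKT-overexpressing libraries, coloured where edgeR's adjusted p was under 0.05. The 10 red genes stand apart from the control points, while GPX1 overlaps them and most grey genes lie around 0.

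Among the regulators, MAFF and MAFG were higher while NFE2L2 and KEAP1 did not pass the test. MAFF (chromosome 22, 38200767 to 38216511), a small MAF partner of NRF2, had 34.0, 35.6 and 35.1 CPM in TKT-overexpressing cells and 25.4, 23.0 and 25.1 CPM in control cells. MAFG (chromosome 17, 81918270 to 81927714), a second small MAF partner, had 70.2, 64.0 and 66.6 CPM against 52.2, 54.4 and 50.6 CPM. All TKT-overexpressing libraries exceeded all control libraries for both genes, with log2 fold changes of 0.51 (SE 0.07, adjusted p = 3.99e-05) and 0.35 (SE 0.05, adjusted p = 1.64e-04). NFE2L2 had 236, 237 and 254 CPM in TKT-overexpressing cells and 219, 238 and 229 CPM in control cells. These values overlapped, and the log2 fold change was 0.09 (SE 0.04, adjusted p = 0.205). KEAP1, the regulator with the highest level on the FPKM scale at 55.3 FPKM in control cells, had 180.0, 189.6 and 178 CPM against 202, 191 and 203 CPM. In CPM, which are not divided by length, the control mean was 228 for NFE2L2 and 199 for KEAP1. Every TKT-overexpressing library was below every control library for KEAP1, but the log2 fold change of -0.12 (SE 0.04, adjusted p = 0.0623) missed the threshold. BACH1 had a log2 fold change of 0.13 (SE 0.06, adjusted p = 0.203). The median of the 5 regulators was 0.13.

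Other factors that pair with or resemble NRF2 gave 1 higher and 1 lower gene among 9 tested. MAFK, the remaining small MAF partner, had 46.0, 44.6 and 49.3 CPM in TKT-overexpressing cells and 26.4, 28.1 and 31.6 CPM in control cells, with a log2 fold change of 0.70 (SE 0.07, adjusted p = 3.22e-07). The 3 small MAF genes were thus each higher. NFE2L1, a factor related to NRF2 that drives proteasome genes, was lower, with a log2 fold change of -0.13 (SE 0.04, adjusted p = 0.0237).

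Antioxidant response elements were looked for in the promoters because these factors bind them. A RefSeq promoter of 250 bases before and 50 after the start site (GRCh38.p14) was found for 39 of the 48 genes. The core TGACNNNGC, read on both strands, occurred in 9 of the 39 (23.1%), in 13.6% of all 27305 promoters and in 15.2% of those of tested genes. It occurred in 3 of 9 promoters of higher genes, in 0 of 5 of lower genes and in 6 of 25 of genes that were not called. A longer form, the core with an A after it, occurred in 5 of the 39 promoters (12.8%) and in 3.26% of all promoters. The first match in each of 6 promoters is printed in capitals with up to 25 bases on each side, written along the gene's strand. GCLM, TXNRD1 and MAFF are shown as the higher genes with a match. GPX2, GSTP1 and CBR1 are shown as genes with the longer form that were not called. The longer form was also present in GCLM and in GSTO1, which was not called and is not printed. By call, it occurred in 1 of 9 promoters of higher genes, 0 of 5 of lower genes and 4 of 25 of genes not called. Capitals that begin with GC hold the core on the opposite strand.
GCLM (chr1:93909431-93909489, minus strand): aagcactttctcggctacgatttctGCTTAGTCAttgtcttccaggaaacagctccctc
TXNRD1 (chr12:104215655-104215713, plus strand): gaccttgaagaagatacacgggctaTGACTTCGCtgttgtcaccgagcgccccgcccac
MAFF (chr22:38201847-38201905, plus strand): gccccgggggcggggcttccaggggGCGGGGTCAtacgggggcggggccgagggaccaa
GPX2 (chr14:64942834-64942892, minus strand): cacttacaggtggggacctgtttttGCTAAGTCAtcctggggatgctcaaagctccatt
GSTP1 (chr11:67583721-67583779, plus strand): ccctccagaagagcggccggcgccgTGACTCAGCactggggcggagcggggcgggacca
CBR1 (chr21:36069840-36069898, plus strand): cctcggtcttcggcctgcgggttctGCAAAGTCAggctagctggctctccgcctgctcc
The match lay 34 to 26 bases before the start site in GCLM and 99 to 91 before it in TXNRD1, and the sequence of TXNRD1 is that of the first of its promoters in the table. In GSTP1 the match also overlapped the AP-1 core TGANTCA. A match is a description of these letters, and the window reaches no distant enhancer.

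In glutathione synthesis, both subunits of the first enzyme were higher and the other steps did not pass the test. GCLC (chromosome 6, 53497341 to 53616970), the catalytic subunit of glutamate-cysteine ligase, had 87.1, 85.2 and 86.5 CPM in TKT-overexpressing cells and 64.5, 67.5 and 66.2 CPM in control cells. GCLM (chromosome 1, 93885205 to 93909456), the modifier subunit that tunes it, had 169.8, 173 and 184 CPM against 138, 151 and 133 CPM. No library of one condition reached the other, and the log2 fold changes were 0.38 (SE 0.05, adjusted p = 1.83e-05) and 0.32 (SE 0.05, adjusted p = 1.19e-04), or 1.31-fold and 1.25-fold. Both subunits rose by a similar factor, so that the ratio of GCLC to GCLM on the FPKM scale was 0.296 ± 0.0155 in control and 0.310 ± 0.0131 in TKT-overexpressing cells (SD, n = 3 each). GSS, which adds glycine in the second step, had a log2 fold change of -0.10 (SE 0.05, adjusted p = 0.304). GCLM relative to GSS went from 1.86 ± 0.219 to 2.47 ± 0.0833 on the FPKM scale (SD, n = 3 each). GSR, which returns oxidized glutathione to its reduced form, had the highest level of the group, 98.8 FPKM in control cells. Its values of 366, 362 and 381 CPM overlapped the control values of 369, 352 and 353 CPM, with a log2 fold change of 0.05 (SE 0.04, adjusted p = 0.493). SLC7A11, the cystine carrier of the cystine/glutamate exchanger, had a log2 fold change of -0.18 (SE 0.07, adjusted p = 0.118). The group's summed level was 149.5 FPKM in control and 160.7 FPKM in TKT-overexpressing cells. Its median log2 fold change was 0.05.

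Further enzymes and carriers of glutathione, none of them among the 48, gave 1 higher and 4 lower genes of 23 tested. SLC3A2, the heavy chain with which SLC7A11 forms the exchanger, was higher, with 441, 448 and 416 CPM against 346, 324 and 347 CPM and a log2 fold change of 0.36 (SE 0.04, adjusted p = 1.48e-06). Lower were CHAC1, which degrades glutathione, at -0.52 (SE 0.10, adjusted p = 0.00114), LANCL1, a glutathione-binding protein, at -0.24 (SE 0.06, adjusted p = 0.0114), and SLC25A39, the mitochondrial glutathione carrier, at -0.16 (SE 0.04, adjusted p = 0.0128). Of the 23 tested genes that the deposited table assigns to glutathione metabolism in KEGG and that are outside the 48, none was higher and 7 were lower by edgeR, and DESeq2 gave the same counts. At an unadjusted p under 0.05, 0 were higher and 10 lower. The 7 include CHAC1 and LANCL1, and, with the smallest adjusted p, RRM2, a ribonucleotide reductase subunit, at -0.28 (SE 0.04, adjusted p = 1.07e-05), and ODC1, which makes putrescine, at -0.17 (SE 0.03, adjusted p = 0.00219). RRM2 and ODC1 work in nucleotide and polyamine synthesis, not in the making of glutathione.

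None of the 5 glutathione peroxidases was higher and 1 was lower by edgeR, as by DESeq2, with a median change of -0.09 on the log2 scale. At an unadjusted p under 0.05, 1 was higher and 1 lower. GPX1 (chromosome 3, 49357171 to 49358600), the cytosolic peroxidase, had 142, 153 and 136 CPM in TKT-overexpressing cells and 165, 151 and 179 CPM in control cells. One TKT-overexpressing library exceeded the lowest control library, and the log2 fold change was -0.20 (SE 0.06, adjusted p = 0.0401). GPX4, which reduces lipid peroxides and guards against ferroptosis, had the highest level at 266 FPKM in control cells. Its 479, 507 and 444 CPM overlapped the control values of 498, 451 and 530.5 CPM, with a log2 fold change of -0.05 (SE 0.07, adjusted p = 0.731). GPX2, a peroxidase first known from the gut, had a log2 fold change of 0.10 (SE 0.04, adjusted p = 0.138), and GPX3, the secreted form, of -0.09 (SE 0.05, adjusted p = 0.246). GPX8 held only 18 to 41 counts in a library, and its SE of 0.39 was the largest of the 48 genes.

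Several peroxidases and the thioredoxin reductases carry selenocysteine, and of 15 tested genes of selenoprotein synthesis or other selenoproteins, 3 were higher and 3 lower. SELENOM was higher at 0.34 (SE 0.08, adjusted p = 0.0169). SELENOH was lower at -0.35 (SE 0.06, adjusted p = 9.20e-04), SEPHS2, which makes the selenium donor, at -0.19 (SE 0.04, adjusted p = 0.00223), and SELENOW at -0.22 (SE 0.06, adjusted p = 0.0163).

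Of the 12 glutathione transferases, 1 was higher and 1 lower, and the median log2 fold change was -0.02. This is 8.33% in each direction, near the 5.69% higher and 4.94% lower of all tested genes. GSTA2 (chromosome 6, 52750089 to 52763569), an alpha-class transferase of hepatocytes, had 4.40, 4.70 and 4.96 CPM in TKT-overexpressing cells and 1.81, 2.44 and 2.50 CPM in control cells. Each TKT-overexpressing library exceeded each control library, and the log2 fold change of 1.06 (SE 0.20, adjusted p = 0.00123) was the largest of the 48 genes. It rested on few reads, 57 to 163 counts in a library, and GSTA2 is so similar to its neighbour GSTA1 that the assignment of reads between them is uncertain. GSTA1 itself did not overlap between conditions but had a log2 fold change of 0.20 (SE 0.07, adjusted p = 0.0798), and GSTA2 relative to GSTA1 was 0.0751 ± 0.0189 in control and 0.133 ± 0.00852 in TKT-overexpressing cells on the FPKM scale (SD, n = 3 each). GSTK1 (chromosome 7, 143244093 to 143270854), the mitochondrial and peroxisomal kappa-class transferase, was lower, with 73.7, 72.6 and 73.4 CPM against 82.4, 86.8 and 83.4 CPM. The conditions did not overlap, and its log2 fold change was -0.20 (SE 0.05, adjusted p = 0.0116).

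GSTP1, the pi-class transferase, dominated the group. It had 1163, 1248 and 1120 CPM in TKT-overexpressing cells and 1299, 1187 and 1314 CPM in control cells, values that overlapped, with a log2 fold change of -0.11 (SE 0.04, adjusted p = 0.148). It took 71.6% of the summed transferase FPKM in control and 70.0% in TKT-overexpressing cells, and the sum was 997 FPKM and 949 FPKM. GSTM3 had a log2 fold change of 0.45 (SE 0.15, adjusted p = 0.0586) from about 1.02 FPKM in control cells, and reads of mu-class transferases can likewise be shared with their near copies. The other transferases that were not called, GSTA4, GSTM4, GSTO1, GSTZ1, MGST1, MGST2 and MGST3, lay between -0.18 and 0.07 on the log2 scale.

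Among thioredoxin and peroxiredoxin genes, the reductase TXNRD1 and the inhibitor TXNIP were higher and the peroxiredoxin PRDX2 was lower. TXNRD1 (chromosome 12, 104215779 to 104350305), which reduces cytosolic thioredoxin with NADPH, had 690.3, 704 and 684 CPM in TKT-overexpressing cells and 513, 521 and 499 CPM in control cells. The spread within a condition was small beside the difference between them, and the log2 fold change was 0.44 (SE 0.03, adjusted p = 1.04e-08). TXNIP (chromosome 1, 145992435 to 145996600), which binds reduced thioredoxin and limits glucose uptake, had 24.2, 26.2 and 26.6 CPM against 14.1, 12.01 and 12.7 CPM. It roughly doubled, with a log2 fold change of 0.99 (SE 0.09, adjusted p = 1.28e-07) and a 1.99-fold difference. TXN, thioredoxin itself, had a log2 fold change of -0.0042 (SE 0.04, adjusted p = 0.971), so that TXNRD1 relative to TXN went from 0.189 ± 0.0107 to 0.257 ± 0.0113 on the FPKM scale (SD, n = 3 each). The mitochondrial pair TXN2 and TXNRD2 had log2 fold changes of -0.14 (SE 0.06, adjusted p = 0.197) and 0.17 (SE 0.06, adjusted p = 0.0594).

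The 6 peroxiredoxins, which remove hydrogen peroxide, all had log2 fold changes below 0, and 1 of the 6 passed the test. With the length and GC trend removed, or without the third TKT-overexpressing library, 5 of the 6 were below 0, the exception being PRDX5. PRDX2 (chromosome 19, 12796820 to 12801859) had 223, 245 and 212 CPM in TKT-overexpressing cells and 269.9, 248 and 285 CPM in control cells, with a log2 fold change of -0.24 (SE 0.06, adjusted p = 0.0215). The highest TKT-overexpressing library lay just under the lowest control library. PRDX1, the most abundant at 527 FPKM in control cells, had 858, 875 and 816 CPM against 900.4, 861 and 912 CPM. These values overlapped, with a log2 fold change of -0.07 (SE 0.04, adjusted p = 0.275). PRDX3, PRDX4, PRDX5 and PRDX6 lay between -0.09 and -0.04. SRXN1, the sulfiredoxin that repairs overoxidized peroxiredoxins, had a log2 fold change of 0.43 (SE 0.21, adjusted p = 0.209) with overlapping libraries at about 1.29 FPKM in control cells. The group's median log2 fold change was -0.06, and its summed level was 1873 FPKM in control and 1825 FPKM in TKT-overexpressing cells. Of 23 further tested genes with a thioredoxin fold or a related reductase, none was higher by edgeR and ERO1A, an oxidase of the endoplasmic reticulum, was lower at -0.21 (SE 0.06, adjusted p = 0.0342). DESeq2 called 0 of these 23 higher and 2 lower, and at an unadjusted p under 0.05 they were 0 and 4.

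Of the 9 remaining enzymes, HMOX1, SOD2 and OSGIN1 were higher, CAT and IDH1 were lower, and the median log2 fold change was -0.03. HMOX1 (chromosome 22, 35380361 to 35394214), which degrades heme, had 161, 163 and 156 CPM in TKT-overexpressing cells and 118, 114 and 116 CPM in control cells. SOD2 (chromosome 6, with 2 overlapping records in the annotation), the mitochondrial superoxide dismutase, had 327, 318 and 322 CPM against 255, 268 and 261 CPM. OSGIN1 (chromosome 16, 83948282 to 83966332), a growth inhibitor induced by oxidative stress, had 79.5, 87.8 and 81.3 CPM against 60.4, 59.2 and 68.8 CPM. None of the 3 genes overlapped between conditions, and their log2 fold changes were 0.47 (SE 0.04, adjusted p = 1.16e-07), 0.30 (SE 0.04, adjusted p = 5.84e-06) and 0.40 (SE 0.06, adjusted p = 1.30e-04). SOD1, the cytosolic dismutase, had a log2 fold change of -0.13 (SE 0.04, adjusted p = 0.0526), and SOD2 relative to SOD1 went from 0.106 ± 0.00912 to 0.142 ± 0.00450 on the FPKM scale (SD, n = 3 each).

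IDH1 (chromosome 2, 208236227 to 208266074), the cytosolic isocitrate dehydrogenase that makes NADPH, had the highest level of these enzymes at 219 FPKM in control cells. It had 882, 921 and 883 CPM in TKT-overexpressing cells and 1034, 1038 and 1034 CPM in control cells. The control libraries were within a few CPM of each other and all above the TKT-overexpressing libraries, with a log2 fold change of -0.21 (SE 0.03, adjusted p = 2.77e-04). CAT (chromosome 11, 34438925 to 34472062), the peroxisomal catalase, had 113, 108 and 122 CPM against 131, 133 and 124 CPM and a log2 fold change of -0.18 (SE 0.05, adjusted p = 0.0238). NQO1, a quinone reductase widely used as a readout of NRF2, had 609, 637 and 583 CPM against 620.4, 602 and 649.5 CPM. Its libraries overlapped, with a log2 fold change of -0.03 (SE 0.04, adjusted p = 0.671). ME1, a malic enzyme that makes NADPH, had a log2 fold change of -0.0010 (SE 0.04, adjusted p = 0.993), and CBR1, a carbonyl reductase, of -0.04 (SE 0.07, adjusted p = 0.793).

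Known NRF2 targets outside the 48 gave 9 higher genes of 22 tested, the introduced TKT among them. AKR1C2, AKR1B10 and AKR1C1, aldo-keto reductases that reduce carbonyls and steroids, had log2 fold changes of 1.34 (SE 0.06, adjusted p = 9.96e-13), 1.30 (SE 0.07, adjusted p = 1.18e-11) and 0.63 (SE 0.06, adjusted p = 2.51e-07). AKR1C2 and AKR1C1 are near-identical, so the split of reads between them is uncertain.

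The levels of the higher and the lower genes overlapped. In control cells the 10 higher genes ranged from 1.83 to 75.8 FPKM, with a median of 10.6 FPKM, and the 5 lower genes from 19.9 to 219 FPKM, with a median of 115 FPKM. GSTK1 and CAT, both lower, lay under the higher genes HMOX1 and TXNRD1 in level, and no test of the difference in level was run. A level of 100 FPKM was set after the values were seen, with all 10 higher genes below it. Of the 14 genes at 100 FPKM or more in control cells, none was higher by edgeR, 3 were lower, and 13 had a log2 fold change below 0, with a median of -0.08. DESeq2 called 0 of the 14 higher and 5 lower, and at an unadjusted p under 0.05 these were 1 and 7. The number below 0 was 11 to 13 in the alternatives. Across all 377 tested genes at that level the median was -0.04, with 5.31% higher and 15.1% lower, so abundant transcripts in general also tilted toward lower values. Of the 34 genes under 100 FPKM, 10 were higher and 2 lower. Of all tested genes, at any level, 5.69% were higher and 4.94% lower. The split at 100 FPKM depends on the division by gene length. In CPM, the higher genes TXNRD1 and SOD2 had control means of 511 and 261. These exceed GPX1 at 165 and GSTO1 at 222 CPM, both past 100 FPKM, while GSTP1 at 1267 CPM stayed above all of them.

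**Figure D2:**
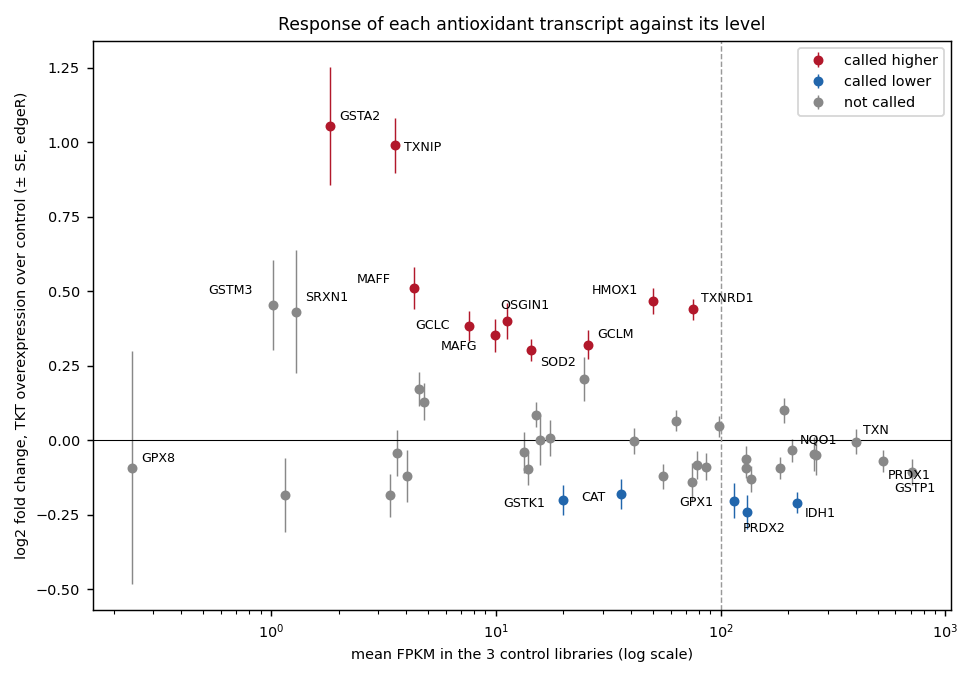
The x axis gives each gene's mean FPKM over the 3 control libraries on a log scale and the y axis its log2 fold change, TKT overexpression over control, with bars of 1 SE from edgeR. Red and blue points were called higher and lower at an adjusted p under 0.05. The dashed line marks 100 FPKM, a level set after the values were seen. All 10 red points lie left of the line, and of the 14 points right of it only GPX2 is above 0. The order along the x axis depends on the division by gene length.

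The summed level of each functional group moved little. Peroxidase genes summed to 659 FPKM in control and 646 FPKM in TKT-overexpressing cells, the remaining enzymes to 730 FPKM and 708 FPKM, and the regulators to 89.5 FPKM and 91.4 FPKM. In each group a few abundant transcripts made up most of the sum. PRDX1 took 28.1% of the thioredoxin and peroxiredoxin sum in control cells.

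**Figure D3:**
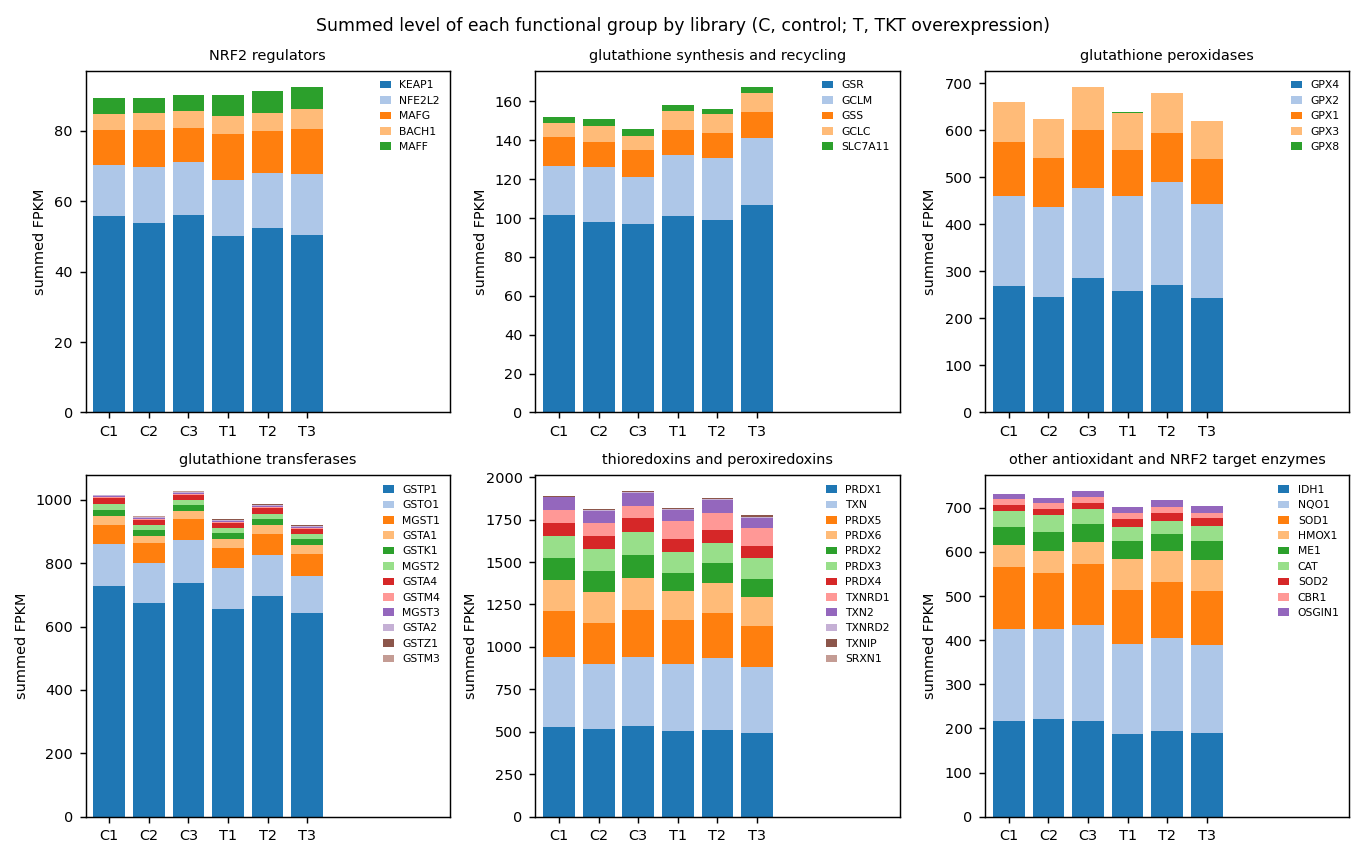
Stacked bars give the summed FPKM of each functional group in each library (C1 to C3, control, and T1 to T3, TKT overexpression), with 1 colour for each gene from the most abundant at the base. The glutathione synthesis and recycling bars lie between 156.3 and 167.4 FPKM in TKT-overexpressing libraries, all above the control bars at 145.9 to 152 FPKM. On this scale the regulators' bars also lie above control (90.27 to 92.45 against 89.24 to 90.07 FPKM). Those of the remaining enzymes lie below it (701.7 to 717.8 against 721.5 to 737.4 FPKM). The FPKM carry no TMM factor, and these factors ran from 0.9898 to 1.0155 across libraries. The narrow gaps of the regulators and the remaining enzymes therefore depend on the scaling. The other groups overlap, and GSTP1 fills most of the transferase bars.

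The 10 higher genes kept an adjusted p under 0.05 in each of 17 alternative analyses, and of the lower genes IDH1 did so. The calls of the other lower genes were less firm. GPX1 passed in 9 of the 17, CAT in 10, PRDX2 in 13 and GSTK1 in 16, always with a log2 fold change below 0. The number of lower genes was 2 without the first TKT-overexpressing library, 3 without the third, 2 without the first control library and 8 without the second control library. Of the genes not called, KEAP1 passed as lower in 3 of the 17, GSTP1 in 3 and SOD1 in 7.

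**Figure D4:**
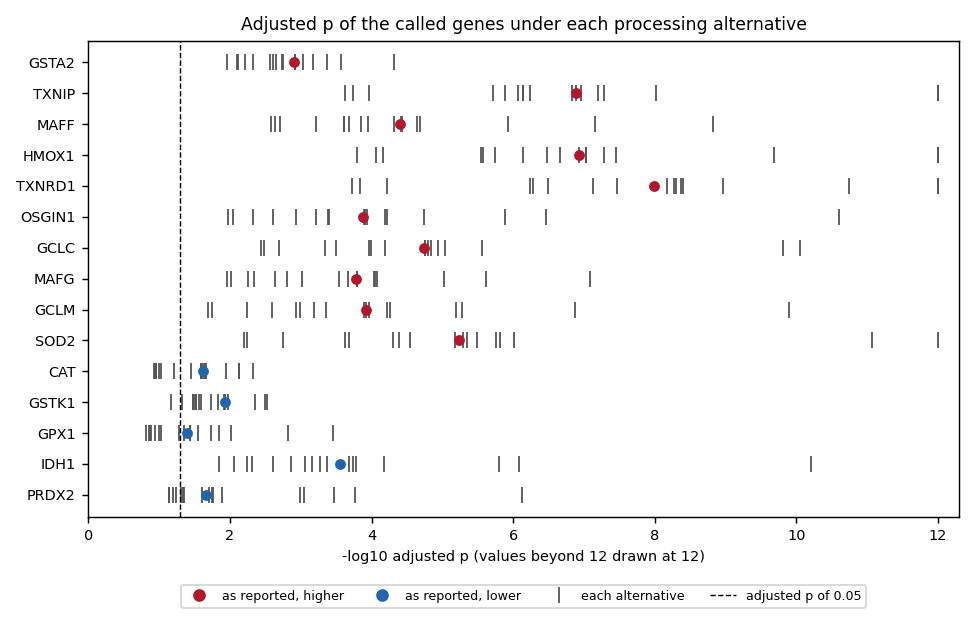
For each of the 15 called genes, the circle gives -log10 of the adjusted p as reported (red, higher; blue, lower) and each tick the value in 1 of 17 alternative analyses. The dashed line marks an adjusted p of 0.05. All ticks of the 10 higher genes and of IDH1 lie right of the line, while those of GPX1, CAT, PRDX2 and GSTK1 fall on both sides of it.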

How the data were processed

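Total RNA of 6 libraries, 3 per condition, was sequenced as paired reads of 150 bases. According to the study's methods and the submitters' processing notes, the authors trimmed reads with fastp 0.22.0, aligned them with HISAT2 2.1.0 to hg38 and obtained gene counts with featureCounts. The deposited counts are raw and whole. The deposited FPKM values could be rebuilt within 1% from the counts, a gene factor and a library factor for 99.8% of genes with counts in all 6 libraries. The annotation and the strand and multi-mapping options are not given in the sources used here. No per-sample column was left unused, and the pathway column served only for the KEGG list. The column names of TKT-overexpressing cells match the condition and no particular sample.

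Counts were filtered with filterByExpr (minimum count 10), scaled by TMM and tested in edgeR 4.0.16 (R 4.3.3) with the robust quasi-likelihood test over all genes and Benjamini-Hochberg adjustment, without pairing. Scripts were tested on simulated data. CPM use TMM library sizes, while FPKM are scaled to total counts without TMM. FPKM were used for levels, sums, shares and ratios, also between conditions, and for the limma fits on log2 FPKM. The common biological coefficient of variation was 0.113. The members and lists were chosen with earlier results of these data known, and the level of 100 FPKM after the values were seen. Given in full were TKT, NFE2L2 and KEAP1, in each group up to 4 called genes with the smallest adjusted p and the gene with the highest control FPKM, and by name up to 4 called genes of each further list. Other genes named were chosen after their values were seen. Some results of the further lists are not reported here.

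The alternatives were DESeq2 1.42.0, limma 3.58.1 on log2(FPKM + 1), on log2(FPKM + 0.1) and with voom, other scalings and filters (no filter, or 50 counts in every library), TKT left out of the scaling, a replicate block and each library left out. A length and GC trend removed from each library was added after the data were seen.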

Additional observations from a re-analysis of the deposited data

How the results depend on the processing

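Of 814 comparisons of a gene's call with an alternative, 767 kept their side of the threshold, 20 were no longer past it and 27 newly passed it. The sign differed in 30 of them, in 8 members that were not called, and in 0 called members. The count of lower members, 5, was 8 with DESeq2, 9 with the length and GC trend removed, 3 with limma on log2(FPKM + 0.1), 3 on log2(FPKM + 1), 8 without a filter, and 2 to 8 with 1 library left out. Members past a log2 fold change of 1 numbered 0 with limma on log2(FPKM + 1), 2 with upper-quartile scaling and 1 to 2 with 1 library left out. Over all genes, 806 higher and 699 lower became 494 and 332 with limma on log2(FPKM + 0.1), 496 and 331 on log2(FPKM + 1), and 457 to 820 higher and 334 to 766 lower with 1 library left out. The cause was not tested. The replicate numbers do not pair the libraries (correlations of -0.0019, -0.0252 and 0.0156 for same-numbered libraries). With the number as a replicate block, 431 genes were higher and 266 lower, and 10 members were higher and 1 lower. With 1 library left out, median log2 fold changes were -0.0706 to -0.0002 for all members, 0.0811 to 0.1595 for regulators, 0.0246 to 0.0684 for glutathione synthesis and recycling, -0.1226 to -0.0402 for peroxidases, -0.0787 to 0.0197 for transferases, -0.0898 to -0.0179 for thioredoxins and peroxiredoxins and -0.0672 to -0.0024 for the remaining enzymes. The regulators' median was 0.1011 with the trend removed. In CPM, not divided by length, control shares of their groups were 36.73% for KEAP1, 52.35% for GSR, 41.83% for GPX4, 56.66% for GSTP1, 25.48% for PRDX1 and 38.77% for IDH1. The longer promoter element matched 5 members. Members with few counts, such as GSTA2 and GPX8, were measured least precisely, and counting error adds to the spread between libraries.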
